A study of Homo sapiens with 2 samples.

Results

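The DEAD and DEAH box RNA helicases were examined for RFX6 peaks in hepatocellular carcinoma (HCC) cells. The family was defined as the protein-coding genes in RefSeq GRCh38.p14 whose symbol is DDX or DHX followed by a digit, which gave 54 of 20037 protein-coding genes, 38 named DDX and 16 named DHX. MHCC-97H, an established human HCC cell line, overexpressed RFX6 with an HA tag. Chromatin was crosslinked with formaldehyde and HA-RFX6 was recovered by chromatin immunoprecipitation followed by sequencing (ChIP-seq). The series holds 1 HA-RFX6 ChIP library and 1 MHCC-97H input library, and the peak list of the ChIP library was used. Without a replicate or a known read depth, no value carries a replicate error, and no difference below was tested. RFX6 came from an overexpression construct with a tag, and an untagged or vector control was not analysed here.

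DEAD and DEAH box proteins use ATP to unwind or remodel RNA and RNA-protein complexes. DEAD box proteins locally pull short duplexes apart, whereas DEAH box proteins move along a single strand and are often switched on by partners with a G-patch domain. Together they drive the steps of the spliceosome, the assembly of ribosomes in the nucleolus, the export of mRNA, translation initiation and the sensing of viral RNA. RFX proteins are winged helix transcription factors that bind the X-box, an inverted repeat with arms of the form GTTNCC. The symbols do not follow the sequence motif strictly, since DHX9 carries a variant of the DEAH box and DDX11 is a DNA helicase with a DEAH box.

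An interval, meaning 1 distinct line of the peak list, lay in or within 1 kb of 20 of the 54 helicase genes (37.0%, 95% Wilson interval 25.4% to 50.4%). The same was true of 3935 of all 20037 protein-coding genes (19.6%). Counted by the midpoint of the interval within 1 kb of either gene end, 19 helicase genes had an interval (35.2%, 23.8% to 48.5%), compared with 15.5% of all protein-coding genes (3100). The share was 14 of 38 among DDX genes (36.8%) and 5 of 16 among DHX genes (31.2%). Among roles with more than 2 genes, splicing had the highest share, as 7 of 10 splicing helicases had an end interval. Each helicase was put in 1 role, and the role lists were chosen with earlier results of these data known, so this ranking is descriptive only. The count was 0 of 3 for innate immunity helicases and 0 of 4 for germ cell helicases. With upper Wilson limits of 56.1% and 49.0%, both ranges included the 15.5% of all protein-coding genes.

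A total of 8 promoters are shown because the interval covered more than 125 of the 250 bases before the annotated start and the window touched no other protein-coding gene and no part of the helicase gene itself. They are given 5′ to 3′ on the strand of the gene (RefSeq, GRCh38.p14), in lower case, and capitals mark matches to a CCAAT box (CCAAT), an ETS motif (CCGGAAG) or 1 arm of an X-box (GTTGCC), each on either strand. The first 4 belong to splicing helicases. The DDX41 window (minus strand) lay at chr5:177516962-177517211, that of DDX46 (plus strand) at chr5:134758529-134758778, that of DHX8 (plus strand) at chr17:43483725-43483974 and that of DDX23 (minus strand) at chr12:48852164-48852413, where it overlapped the non-coding gene LOC105369755.
DDX41: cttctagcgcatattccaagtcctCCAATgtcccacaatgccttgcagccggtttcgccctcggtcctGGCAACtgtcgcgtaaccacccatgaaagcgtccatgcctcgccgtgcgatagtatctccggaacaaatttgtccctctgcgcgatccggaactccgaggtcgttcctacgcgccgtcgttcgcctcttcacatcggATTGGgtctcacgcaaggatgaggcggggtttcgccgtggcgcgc
DDX46: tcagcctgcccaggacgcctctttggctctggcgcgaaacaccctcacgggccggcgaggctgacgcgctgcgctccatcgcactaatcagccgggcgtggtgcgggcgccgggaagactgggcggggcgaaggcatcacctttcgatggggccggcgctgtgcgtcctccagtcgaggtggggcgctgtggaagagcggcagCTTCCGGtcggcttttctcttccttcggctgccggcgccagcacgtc
DHX8: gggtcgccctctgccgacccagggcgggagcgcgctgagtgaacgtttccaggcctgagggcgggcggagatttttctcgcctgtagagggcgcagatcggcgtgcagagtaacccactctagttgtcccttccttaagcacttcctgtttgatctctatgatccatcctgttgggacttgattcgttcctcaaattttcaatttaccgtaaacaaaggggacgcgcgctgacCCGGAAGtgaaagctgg
DDX23: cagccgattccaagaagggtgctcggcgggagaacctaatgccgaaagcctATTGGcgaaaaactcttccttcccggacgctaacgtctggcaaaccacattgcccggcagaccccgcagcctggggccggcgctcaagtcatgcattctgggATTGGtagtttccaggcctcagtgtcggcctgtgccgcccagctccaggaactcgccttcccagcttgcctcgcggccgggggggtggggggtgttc

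The other 4 belong to helicases of ribosome assembly, mitochondrial RNA, translation and tRNA splicing. Their windows, each on the plus strand, lay at chr12:123601849-123602098 for DDX55, chr3:47802888-47803137 for DHX30, chrX:41333058-41333307 for DDX3X and chr2:15591618-15591867 for DDX1, where the window overlapped the non-coding gene LOC124905975.
DDX55: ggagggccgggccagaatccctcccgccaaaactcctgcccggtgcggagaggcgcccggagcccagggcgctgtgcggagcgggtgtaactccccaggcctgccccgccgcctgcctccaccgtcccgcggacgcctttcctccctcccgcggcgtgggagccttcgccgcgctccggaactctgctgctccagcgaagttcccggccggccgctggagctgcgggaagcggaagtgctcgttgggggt
DHX30: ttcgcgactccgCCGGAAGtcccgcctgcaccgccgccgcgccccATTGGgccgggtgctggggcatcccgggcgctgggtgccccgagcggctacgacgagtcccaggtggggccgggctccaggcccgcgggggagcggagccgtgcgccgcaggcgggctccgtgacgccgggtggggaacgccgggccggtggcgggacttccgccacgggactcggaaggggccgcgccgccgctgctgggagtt
DDX3X: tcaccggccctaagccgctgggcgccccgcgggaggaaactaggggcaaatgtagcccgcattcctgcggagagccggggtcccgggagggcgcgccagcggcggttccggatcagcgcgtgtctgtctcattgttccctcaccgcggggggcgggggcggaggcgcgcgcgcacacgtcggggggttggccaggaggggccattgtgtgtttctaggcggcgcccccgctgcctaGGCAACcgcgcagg
DDX1: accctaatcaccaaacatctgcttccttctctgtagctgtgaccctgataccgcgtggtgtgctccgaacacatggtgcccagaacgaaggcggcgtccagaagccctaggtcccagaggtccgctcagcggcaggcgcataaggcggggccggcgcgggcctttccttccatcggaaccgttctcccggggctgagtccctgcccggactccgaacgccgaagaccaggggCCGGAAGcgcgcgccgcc
The interval covered all 250 bases at DDX41 and DDX55, 241 at DHX8, 226 at DHX30, 204 at DDX46, 170 at DDX3X, 163 at DDX1 and 126 at DDX23. No capitals appear at DDX55, which held none of these matches in the 250 bases.

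Spliceosome helicases were examined first. These ATPases act in turn to exchange snRNAs, to start each catalytic step and to release the spliced mRNA. Intervals were present at DDX23, DDX41, DDX42, DDX46, DHX8, DHX16 and DHX38, and their scores at the start ranged from 22 to 56 (median of all intervals in the list, 30). The deposited score is a whole number from 13 to 170 whose meaning is not given in the sources used here, so it only ranks intervals within this list.

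DDX41, a helicase of the catalytic spliceosome that is mutated in inherited myeloid leukaemia, had the highest score of this role. Its interval (chr5:177516622-177517276) was 655 bp wide, was listed on 2 lines with scores of 21 and 56, and had its midpoint 12 bp downstream of the start. DDX23, the human Prp28 that helps to hand the 5′ splice site to U6, had an interval of 381 bp (chr12:48851909-48852289, score 45) that also spanned the start. At DDX46, the Prp5 protein that acts when U2 engages the branch point, the interval (chr5:134758575-134758998, score 42) was centred 7 bp from the start. Of the splicing helicases, DDX41 and DDX46 thus had the intervals closest to the start.

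DHX16, the Prp2 helicase that prepares the first catalytic step, had an interval just inside the gene (chr6:30672753-30672999, score 42), with its midpoint 130 bp downstream of the start. DHX8, the Prp22 helicase that releases spliced mRNA, had an interval over the start (chr17:43483734-43484106) with scores of 22 and 27 on its lines. A second interval near DHX8 (chr17:43545537-43545771, score 23) lay 855 bp beyond its far end and overlapped ETV4, an ETS transcription factor gene with an end 686 bp from the midpoint. DHX38, the Prp16 helicase of the second catalytic step, had an interval with a score of 25 (chr16:72093885-72094124) that also overlapped TXNL4B, a gene for another spliceosome protein that starts nearby. The weakest was at DDX42, a helicase bound to the SF3b part of U2, with a score of 22 (chr17:63773878-63774079). It lay within the annotated gene but upstream of the listed start, and an end of CCDC47 was 381 bp from its midpoint.

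No interval was listed in or within 1 kb of DDX39B, DHX15 or DHX35. DDX39B (UAP56) acts early in splicing and in mRNA export, DHX15 takes spliceosomes apart and DHX35 is found in the catalytic complex. The nearest interval was 39.0 kb from DDX39B, 137 kb from DHX35 and 576 kb from DHX15.

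**Figure D1:**
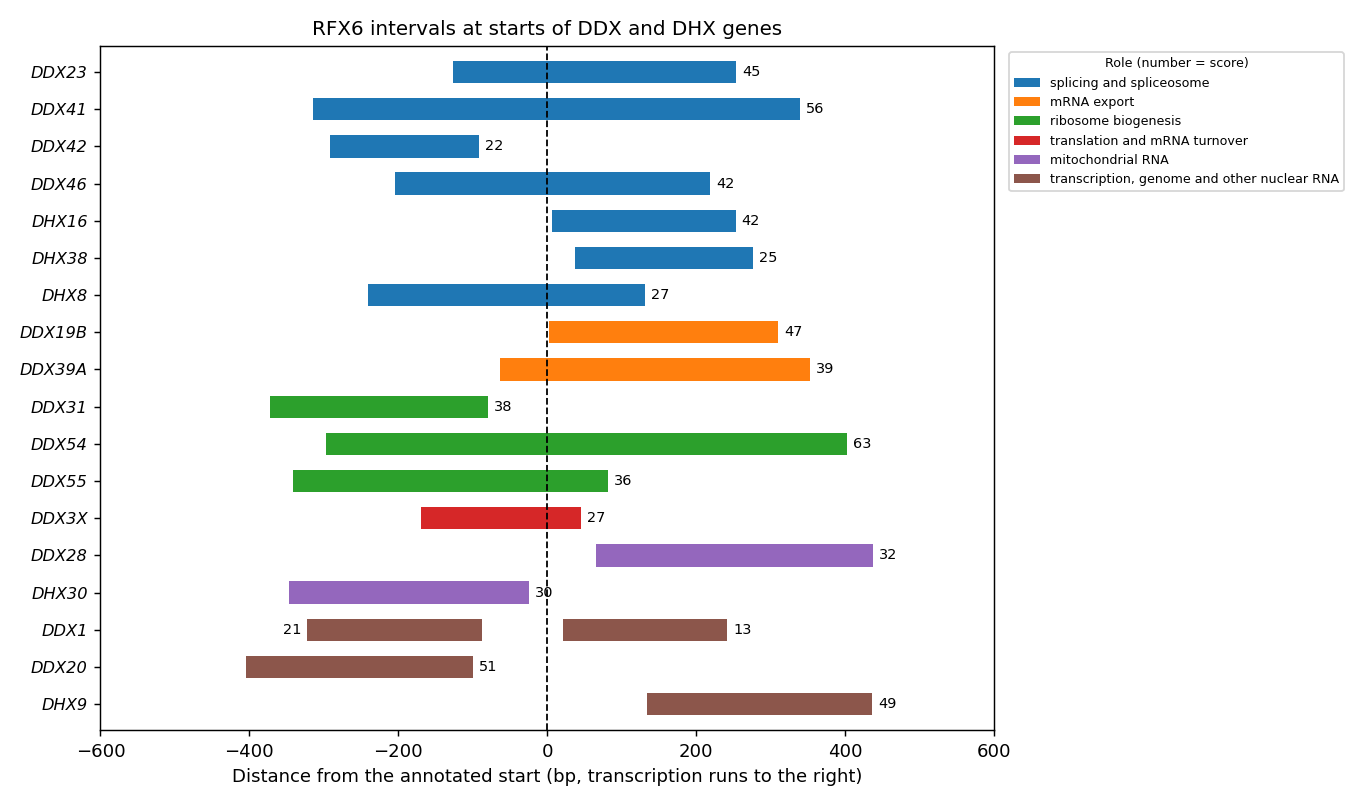
Position of 19 intervals at annotated starts of 18 DDX and DHX genes, with distance from the start in bp on the x axis and 1 gene per row. Bars span each interval, colours give the role and numbers the score. Of the bars, 8 cross the start, 5 lie wholly upstream and 6 wholly downstream, and all midpoints are within 300 bp of the start.

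Ribosome biogenesis formed the largest role, and 5 of its 16 helicases had an end interval (31.2%, 14.2% to 55.6%). The share of all protein-coding genes was 15.5%. DDX54, a nucleolar helicase, had the highest score of the whole family. Its interval of 700 bp (chr12:113185076-113185775) was listed on 6 lines, with a score of 63 on 3 of them and 40 on the others, and its midpoint was 53 bp from the start. The start of RITA1, a gene for a binding partner of the Notch effector RBPJ, lay in the same interval, 296 bp from the midpoint. DDX55 had an interval of 424 bp over its start (chr12:123601757-123602180, score 36) and no other protein-coding end within 1 kb of the midpoint.

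At DDX31 and DDX52, the interval midpoint was nearer to an end of a neighbouring gene than to an end of the helicase gene. The DDX31 interval (chr9:132670062-132670355, score 38) lay outside the gene, 225 bp from its start and 173 bp from an end of GTF3C4, which encodes a subunit of the RNA polymerase III factor TFIIIC. The DDX52 interval (chr17:37609399-37609611, score 49) lay 234 bp from an end of DDX52. It overlapped SYNRG in part, with its midpoint 87 bp upstream of the SYNRG start. DDX49 had a score of 13 on both of its lines (chr19:18919715-18919915), the lowest in the list and shared in the family with 1 interval at DDX1. An end of COPE, a coatomer subunit gene, was 428 bp away. For DDX49 and DDX52 no start was given in the promoter table, so their position was measured from the gene end.

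The other 11 helicases of ribosome biogenesis, namely DDX10, DDX18, DDX21, DDX24, DDX27, DDX47, DDX50, DDX51, DDX56, DHX33 and DHX37, had no interval in or within 1 kb of the gene. Among them are DDX21, which couples rRNA transcription to processing, and its paralogue DDX50. For DHX37, a DEAH box helicase of the small subunit, the nearest interval was 4.64 kb from the gene, and the nearest to DDX56 was 8.02 kb away. At DDX18 it was 1390 kb away.

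In mRNA export, DDX39A, which loads export factors onto mRNA, had an interval of 417 bp that covered both of its 2 listed starts (chr19:14418988-14419404, score 39). DDX19B, which releases mRNA at the cytoplasmic face of the nuclear pore, was the only helicase whose interval was in the gene body alone. The interval (chr16:70299189-70299496) had a score of 47 on both lines and its midpoint lay 9575 bp from the nearest end of the gene, but 156 bp downstream of the innermost of 3 listed DDX19B starts. DDX19A, its close paralogue on the same chromosome, had none, with the nearest interval 47.4 kb away. How reads that fit both paralogues were handled is not given in the sources used here.

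Both helicases of mitochondrial RNA had an end interval (34.2% to 100%), compared with 15.5% of all protein-coding genes. With 2 genes the share says little. DDX28, which takes part in assembly of the mitochondrial ribosome, is a short gene of 2.32 kb. Its interval (chr16:68022794-68023166) was listed on 4 lines with scores of 22 and 32, lay 252 bp downstream of the start, and was 304 bp upstream of the start of DUS2, a tRNA dihydrouridine synthase gene. DHX30, which binds mitochondrial transcripts, had an interval of 323 bp that ended before its start (chr3:47802791-47803113, scores of 17 and 30).

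Of 6 helicases of translation and mRNA turnover, only DDX3X had an interval (16.7%, 3.01% to 56.4%), close to the background of 15.5%. DDX3X promotes translation of mRNAs with structured leaders. Its interval of 217 bp (chrX:41333138-41333354, score 27) crossed the first of 3 listed starts. On chromosome X, 25 of 848 protein-coding genes (2.95%) had an end interval. DDX6, a helicase of mRNA decay and P bodies, DHX29, which assists scanning ribosomes, DHX34, of nonsense-mediated decay, and DHX36, which unwinds G-quadruplexes, had none, nor had DDX3Y. No interval lay on chromosome Y at all.

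In all, 3 of 6 helicases of transcription, genome upkeep and other nuclear RNA had an end interval (Wilson interval 18.8% to 81.2%). Of all protein-coding genes, 15.5% had one. DHX9, which resolves RNA-DNA hybrids and double-stranded RNA, had an interval with a score of 49 inside the gene, 285 bp from the start (chr1:182839481-182839783). It also overlapped the antisense transcript gene DHX9-AS1. DDX20 (Gemin3), a part of the SMN complex that builds snRNPs, had an interval with a score of 51 (chr1:111755496-111755801). This lay 253 bp upstream of DDX20 but within INKA2, 149 bp downstream of the INKA2 start. DDX1, a member of the tRNA ligase complex, was flanked by a pair of low intervals, 1 upstream (chr2:15591546-15591780, score 21) and 1 downstream of the start (chr2:15591889-15592110, score 13). DDX5 and DDX17, paired coregulators of transcription and splicing, had none, and neither had DDX11. The nearest interval was 413 kb from DDX5 and 63.9 kb from DDX17.

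The remaining roles had no interval in any gene. They were the innate immunity helicases DDX60, DDX60L and DHX58, the germ cell helicases DDX4, DDX25, DDX43 and DDX53, and the less characterised DDX59, DHX32, DHX40 and DHX57. With groups this small, the upper Wilson limits were 56.1% for 0 of 3 and 49.0% for 0 of 4, so both include the background. Across all 34 helicase genes without an interval, the nearest one was a median of 180 kb away among the 33 on chromosomes with intervals, and in 30 of the 33 it was more than 30 kb away.

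**Figure D2:**
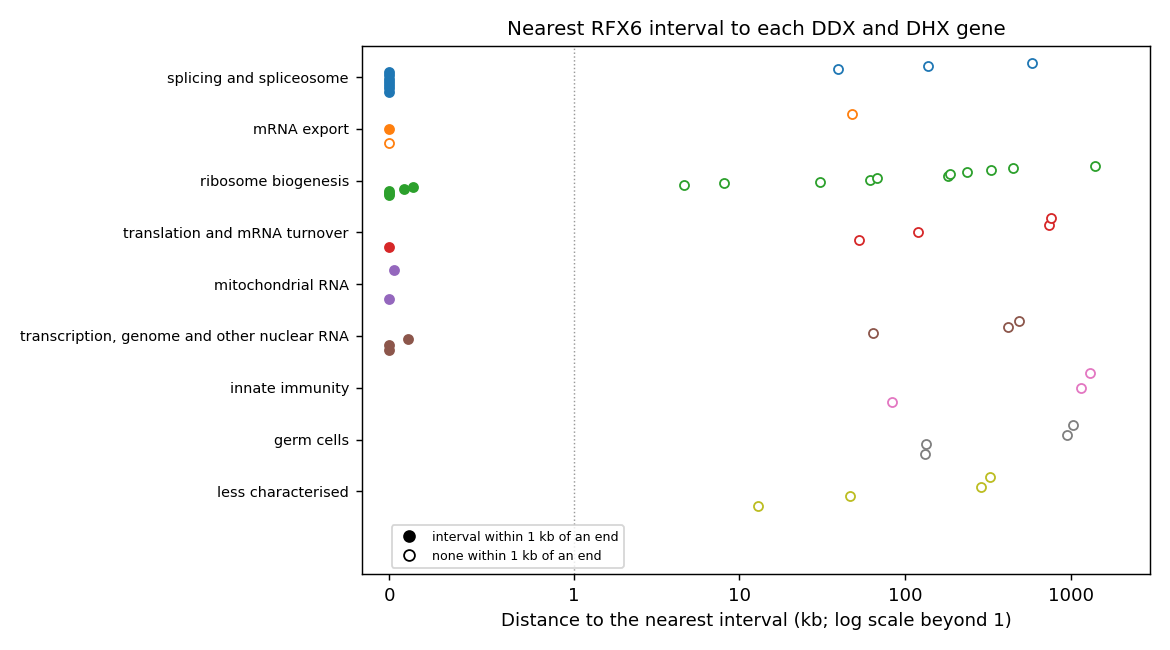
Distance in kb from each of 53 DDX and DHX genes (DDX3Y left out) to the nearest interval, linear to 1 kb and on a log scale beyond, with 1 row per role. Filled points have an interval midpoint within 1 kb of an end and open points do not. Between 1 kb and 30 kb from the gene there are 3 points, those of DHX37, DDX56 and DHX32.

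The roles were then compared with the background. Splicing helicases had an end interval in 70.0% of genes (39.7% to 89.2%), and the lower limit of this range was above 15.5%. The lower limit for the family as a whole, 23.8%, was also above it. These ranges cover the counting of genes only, in 1 library, and genes are not replicates. The role lists were also chosen with earlier results of these data known, so the limits cannot serve as a test. The lower limits for the genes of mitochondrial RNA (34.2%, 2 genes) and for those of transcription, genome and other nuclear RNA (18.8%, 6 genes) were above it too. The ranges of the other roles included the background. Whether roles differed from each other or from the background was not tested.

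**Figure D3:**
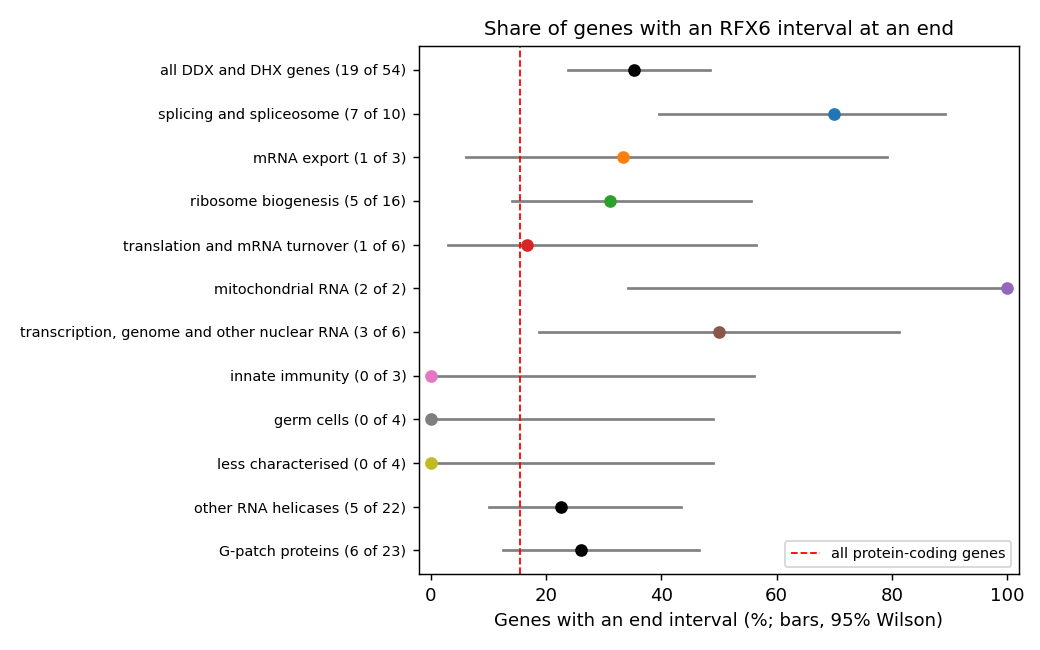
Percentage of genes with an interval midpoint within 1 kb of an end, by role, with 95% Wilson intervals as bars and counts beside the names. The dashed line is the share of all protein-coding genes, 15.5%. The splicing helicases are at 70.0%, and 3 roles are at 0.

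Gene length was similar on both sides. The median was 28.3 kb (range 2.32 to 77.0 kb) for the 19 helicase genes with an end interval and 30.9 kb (3.63 to 276 kb) for the 35 without. Among genes of 10 to 100 kb, 16 of 44 helicase genes (36.4%) and 1904 of 10987 protein-coding genes (17.3%) had an end interval. Sharing of a gene end moved with the result. Another protein-coding end lay within 1 kb of either end of 27 helicase genes, and 14 of these had an end interval (51.9%, 34.0% to 69.3%), compared with 22.3% of all 5710 such genes. The interval was not always at the shared end. At DDX23, DDX39A, DDX41, DDX55, DHX16 and DHX30, no other protein-coding end lay within 1 kb of the interval midpoint. Of the other 27 helicase genes, 5 had one (18.5%, 8.18% to 36.7%), compared with 12.8% of all such genes. The part of shared ends in the result was not tested. Of 21 end intervals at helicase genes, 9 had their midpoint within 1 kb of an end of another protein-coding gene (42.9%). Of all 3054 end intervals, 553 were at ends of 2 or more protein-coding genes (18.1%).

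The score of the 21 end intervals ranged from 13 to 63 around a median score of 36, and the quartiles were 25 and 45. For the other 3033 intervals at protein-coding ends, the quartiles were 25 and 43 and the median score was 32. Of the 21, 13 were at or above the median of the list, 30, and 8 were below it. Most of the other end intervals were also at or above 30, as their median was 32. Widths were alike as well, with medians of 303 and 282 bp. The highest score at other gene ends was 126, above the 63 of DDX54.

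**Figure D4:**
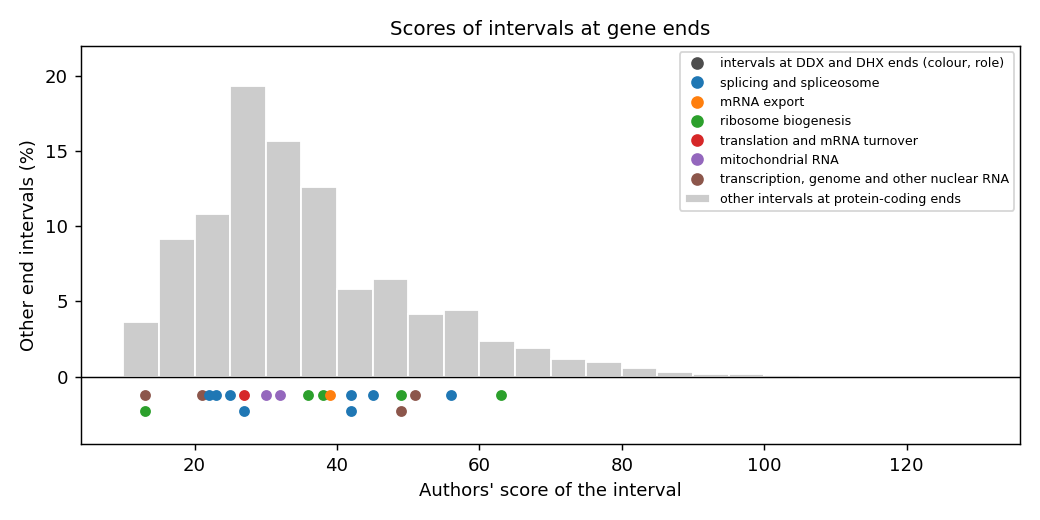
Scores of intervals at gene ends. Grey bars give the percentage of 3033 other end intervals in score bins of 5, and points below the axis are the 21 intervals at ends of DDX and DHX genes, coloured by role. The points run from 13 to 63 and lie over the main body of the bars.

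Position relative to the start was available for 49 of the 54 helicase genes. Of these, 18 had an interval midpoint within 1 kb of a start (36.7%), compared with 16.3% of 15842 protein-coding genes with a listed start. All 19 intervals concerned were centred within 300 bp of a start, from 253 bp upstream to 285 bp downstream, with 8 midpoints upstream and 11 downstream. Of the 2675 other intervals within 1 kb of a start, 75.1% were within 300 bp and 59.9% were downstream. At the far end of a helicase gene, the interval beside ETV4 beyond DHX8 was the only one seen, starts being unknown for DDX49 and DDX52.

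Finally, the promoter letters were searched in 1 window per gene, from 250 bases before to 50 bases after the start that the table lists first. A window with an interval means here that an interval lay within 1 kb of that start. The interval need not reach the window. Those of DDX28 and DHX9 began 66 bp and 134 bp downstream of the start, beyond the window. The X-box with both arms, GTTNCC and its reverse complement GGNAAC with 2 bases between them, reads alike on both strands. It was in 0 of 17 helicase windows with an interval and 0 of 32 without. Its share was 0.467% of all 15842 windows and 0.454% of the 2424 windows of all genes with an interval. An arm with G (GTTGCC, or GGCAAC on the other strand) was in 3 of 17 and 4 of 32 windows, in 12.6% of all and in 12.1% of all with an interval. The arm with A (GTTACC or GGTAAC) was in 0 of 17 and 1 of 32, in 5.91% of all and in 4.79% of all with an interval. A single arm can be part of an X-box with both arms. The windows with an arm and an interval were those of DDX3X, DDX20 and DDX41. DDX19B counted among those without, since its interval lay at other starts than the first listed.

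The ETS motif CCGGAAG, or CTTCCGG on the other strand, was in 8 of 17 helicase windows with an interval (47.1%) and 13 of 32 without (40.6%), compared with 14.2% of all windows and 21.2% of the 2424 windows of all genes with an interval. It is seen in capitals close before the start in DDX46, DHX8 and DDX1. The CCAAT box (CCAAT or ATTGG) was in 8 of 17 and 14 of 32 windows, in 36.4% of all and in 37.0% of all with an interval. The GC box GGGCGG, or CCGCCC, was in 9 of 17 helicase windows with an interval (52.9%), 18 of 32 without (56.2%), 58.5% of all windows and 79.8% of all windows with an interval. The E-box CACGTG was in 2 of 17 and 6 of 32 (8.88% of all, 11.3% of all with an interval). The NRF1 motif GCGCATGC, or GCATGCGC, was in 2 of 17 and 3 of 32 (4.26% of all, 6.11% of all with an interval). Median GC content was 63.0% in helicase windows with an interval and 59.5% in those without, compared with 62.7% in all windows and 68.7% in all windows with an interval. A match describes letters only, and none of these differences was tested.

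Other RNA helicases, which unwind RNA but carry other names, had an end interval in 5 of 22 genes (22.7%, 10.1% to 43.4%). These were AQR, a helicase of the spliceosome (score 25), ASCC3, of stalled ribosome rescue (43), DICER1, which cuts microRNA precursors (36), HELZ2 (28) and UPF1, of nonsense-mediated decay (27). SNRNP200, the spliceosome helicase that unwinds U4 from U6, had none, and neither had EIF4A1, EIF4A2 or EIF4A3. The EIF4A genes carry a DDX or DHX name as an older symbol and were counted here, outside the family, by their present symbol. Genes for G-patch proteins, some of which activate DEAH box helicases, had an end interval in 6 of 23 cases (26.1%, 12.5% to 46.5%), namely CHERP (score 15), GPANK1 (20 and 42), GPATCH8 (48), RBM5 (28), SON (41) and ZGPAT (37). Both ranges included 15.5%.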

How the data were processed

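The authors precipitated HA-RFX6 from MHCC-97H cells and sequenced the DNA, and peaks were called with MACS2 2.1.0.2 (submitters' processing notes) at a stated q-value threshold of 0.01. The aligner and the use of the input as control are not given in the sources used here. The authors deposited a peak list whose score is a whole number of unstated meaning. The processing notes name GRCh37, yet the coordinates lay at gene ends of GRCh38.p14. The midpoint of an interval was within 1 kb of an end in 19 helicase genes as deposited, and in 1 after a move by 20 kb to either side.

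The list held 6214 lines, 1 of them with digit separators that were removed, and the 5019 distinct nuclear intervals entered the counts with their highest score. Starts were converted to 1-based positions. Genes and starts came from RefSeq tables, which list no exons, and 49 of 54 helicases and 15842 of 20037 protein-coding genes had a start. The overlap required was 1 bp. Genes named are all helicases, the listed genes with an end interval and neighbours within 1 kb. The members, role lists and motifs were chosen with earlier results of these data known. Shares have 95% Wilson intervals, which cover counting only. Alternatives were score filters of 20 and 30, merging, windows of 2 kb and 5 kb, moves by 20 kb, other overlap rules, nearest gene end and annotated starts. The procedure was tested on simulated data. Python 3.11.15, numpy 2.4.6, pandas 2.3.3 and matplotlib 3.10.9 were used.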

Additional observations from a re-analysis of the deposited data

How the results depend on the processing

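The number of helicase genes with an interval midpoint within 1 kb of an end, 19, was between 13 and 20 with score filters, merging, wider windows, any overlap, the nearest gene end and annotated starts. It was 13 for scores of at least 30 (background 9.5%), where DDX1, DDX3X, DDX42, DDX49, DHX38 and DHX8 dropped out, and 16 by the nearest gene end (13.4%), where DDX20, DDX31 and DDX52 went to a neighbour. Of the 7 splicing helicases, DDX42, DHX38 and DHX8 were among those lost for scores of at least 30. A move by 20 kb to lower coordinates left 1 helicase gene with an end interval (background 2.01%), and so did a move to higher coordinates, also 1 (2.05%). The 20 genes with an interval in or within 1 kb of the gene became 8 after the move down (14.8%, background 12.9%) and 16 after the move up (29.6%, background 12.8%).

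Of the other RNA helicases, 5 had an end interval, 2 for scores of at least 30, and 0 and 2 after the moves down and up. For the G-patch genes the count was 6, and it was 3 by the nearest gene end, 1 after the move down and 0 after the move up. No paired analysis was possible because only 1 ChIP library had a file. As read depth was unknown, absence from the list does not show absence of RFX6.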

Other observations

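Intervals were also looked for at genes outside the protein-coding DDX and DHX symbols. Of 35 pseudogenes with a DDX or DHX symbol, 1 had an interval in or within 1 kb of it, against 0.551% of all 17051 pseudogenes. This was DDX12P, a transcribed copy of the DNA helicase gene DDX11, with an interval of 204 bp (chr12:9447874-9448077, score 39) that was 197 bp from an end. The interval nearest to DDX11 itself was 486 kb away. The handling of reads that fit both copies is not given in the sources used here. Of 8 other non-coding genes with such symbols, only DHX9-AS1 had an interval, the one that it shares with DHX9, against 4.05% of all 22591 non-coding genes that are not pseudogenes.

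A further 8 protein-coding genes carry a DDX or DHX name as an older symbol, among them EIF4A1, RIGI and SKIC2. The end of 1 of these, INTS6, an Integrator complex gene, had an interval, against 15.5% of all protein-coding genes. It was 975 bp wide (chr13:51452775-51453749), was listed on 3 lines and had a score of 61. Of the end intervals at DDX and DHX genes, that of DDX54 alone scored higher, at 63.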
